A study of Drosophila melanogaster with 3 samples.

Results

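Dense clusters of Lola-RI binding sites were described as runs of ChIP-seq summits, the summit being the position of strongest signal within a peak. The 9202 summits of the authors' reproducible peak list were sorted by position, and the lower-scoring summit of any pair within 250 bp was dropped, which left 8118 retained summits. Retained summits at most 3000 bp apart were joined, and the members were all summits in runs of 5 or more. This gave 811 members in 132 runs, against 7307 other retained summits. The positions and scores of the peaks chose the members, so the density, lengths and scores of the runs are given as description with no test. The study immunoprecipitated chromatin from a transgenic Drosophila melanogaster line (strain lola-RI-GFP) that stably carries Lola-RI with eGFP at its C terminus. Whole larvae of mixed sex were taken in the third instar, at the wandering stage. There were 3 biological replicates in 1 group and no comparison group. The immunoprecipitation used an anti-GFP antibody according to the sample description, whereas the antibody field names lola. The tagged protein came from 1 transgenic line whose promoter is not given in the labels, and whole animals mix all tissues, so a run may collect summits bound in different cells. The files hold binding positions and no expression, so the labelled stage could not be checked against marker genes.

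The lola locus encodes many isoforms of a transcription factor that share an N-terminal BTB domain, a protein-interaction domain, and mostly differ in a C-terminal zinc finger region that contacts DNA. Lola proteins are known for roles in axon guidance, in keeping the identity of neurons and in the germline. Wandering larvae precede the ecdysone pulse that starts metamorphosis, and several genes of the ecdysone response are long, with many introns and alternative promoters.

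Windows reaching 50 bp to either side of the summit, for members of 6 runs with many summits, are printed because the letters AAGCT recur in them. Each window belongs to the highest-scoring member of its run that held AAGCT and lay clear of annotated exons, so the choice fixes that a match is present. Capitals mark AAGCT or its reverse complement AGCTT, and the palindrome AAGCTT holds both. Bases are from the RefSeq release 6 genome (dm6), plus strand, 5′ to 3′.
crp (chr2L:16269554-16269654): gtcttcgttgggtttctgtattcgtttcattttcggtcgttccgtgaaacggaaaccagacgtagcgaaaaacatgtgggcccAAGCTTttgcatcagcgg
near Alp13 (chr3R:10076816-10076916): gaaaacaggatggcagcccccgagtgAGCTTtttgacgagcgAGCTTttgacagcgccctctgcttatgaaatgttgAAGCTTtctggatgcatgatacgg
COX7AL2 (chr2L:2194564-2194664): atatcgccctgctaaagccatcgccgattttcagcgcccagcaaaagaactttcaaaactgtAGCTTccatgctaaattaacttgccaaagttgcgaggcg
tara (chr3R:16229377-16229477): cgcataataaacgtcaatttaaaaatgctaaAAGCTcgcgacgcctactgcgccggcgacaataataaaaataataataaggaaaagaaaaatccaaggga
Raf (chrX:2304054-2304154): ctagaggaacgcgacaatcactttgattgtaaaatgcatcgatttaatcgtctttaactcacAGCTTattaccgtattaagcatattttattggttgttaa
Eip75B (chr3L:18026127-18026227): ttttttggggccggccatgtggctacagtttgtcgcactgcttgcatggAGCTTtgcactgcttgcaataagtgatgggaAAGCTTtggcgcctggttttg
In the Eip75B window, 145 bp upstream of an Eip75B transcription start site (TSS), the nearest match lay 1 bp from the summit. The match nearest to the summit lay 35 bp away in crp, 6 bp away near Alp13, 14 bp away at COX7AL2 and in Raf, and 17 bp away in tara. These summits spanned ranks 1 to 4109 of the list, and the tara window came from a low-scoring member.

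The next set shows that summits of the same run need not share the letters. These are the next-best members of the crp run, at ranks 692, 1147 and 1973 and clear of annotated exons, chosen by rank alone.
crp (chr2L:16284631-16284731): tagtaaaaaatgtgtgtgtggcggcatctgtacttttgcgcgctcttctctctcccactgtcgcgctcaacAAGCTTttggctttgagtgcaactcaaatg
crp (chr2L:16287873-16287973): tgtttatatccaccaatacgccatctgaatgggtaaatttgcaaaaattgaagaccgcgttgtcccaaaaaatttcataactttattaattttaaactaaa
crp (chr2L:16273591-16273691): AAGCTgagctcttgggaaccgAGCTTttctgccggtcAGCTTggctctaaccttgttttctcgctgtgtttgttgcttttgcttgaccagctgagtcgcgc
The first held 2 matches, the nearest 23 bp from the summit. The second, 193 bp upstream of a crp TSS, held none. The third held 3 matches, the nearest 11 bp from the summit.

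Most runs were short. Of the 132 runs, 70 held 5 summits, 28 held 6, 12 held 7 and 9 held 8, while 4 held 9, 5 held 10, 2 held 11 and 1 each held 14 and 15. From first to last summit the runs measured 2877 to 19701 bp, with a median of 6875 bp, and together they covered 996 kb or 0.744% of the 6 chromosomes analysed. Neighbouring members lay a median of 1330 bp apart (679 gaps, 252 to 2998 bp), and 366 of the gaps measured over 500 to 1500 bp. The runs held a median of 0.818 summits per kb, and those at PyK (pyruvate kinase), CG1677 and the shorter of 2 in Eip74EF were among the densest, with 1.62, 1.61 and 1.57. These counts depend on how weak a peak is admitted. Keeping only the reproducible peaks found in both of the other shortened replicate lists, which also removes weak peaks, left 82 runs without replicate 1, 74 without replicate 2 and 80 without replicate 3. The members then numbered 483, 431 and 477.

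**Figure D1:**
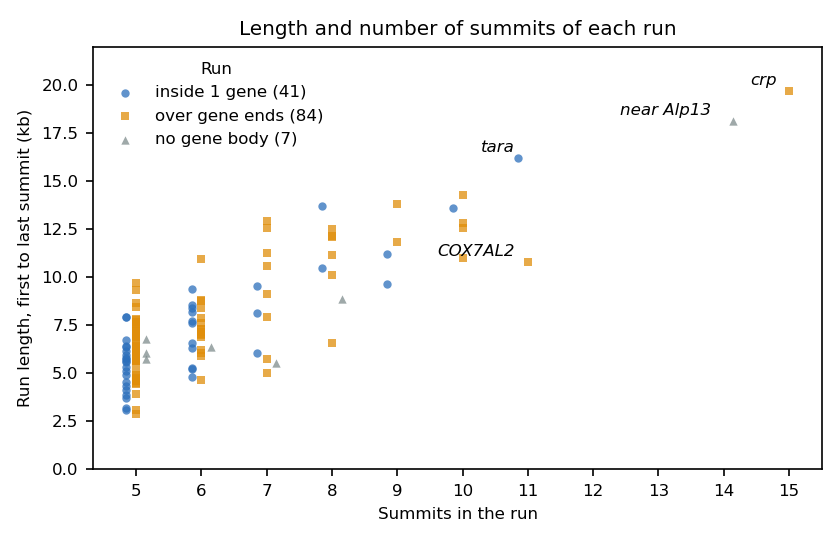
Each point is 1 of the 132 runs, placed by its number of summits (x axis) and its length from first to last summit in kb (y axis), with colour and shape for runs inside 1 protein-coding gene, over gene ends or with no member in a protein-coding gene body. The longest run is at crp, and 70 runs stand at 5 summits.

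A run was named by its host, the protein-coding gene whose body held most of its members, or by the gene with the nearest TSS where no such body held any. The largest run lay over crp (cropped), which encodes a basic helix-loop-helix transcription factor, and held 15 summits over 19701 bp (chr2L:16268222-16287923). All but 1 of its members lay in the crp body, and by class 14 were intronic and 1 was at a promoter. Its highest-scoring summit, in an intron, ranked 73 in the reproducible list and 76, 78 and 69 in replicates 1, 2 and 3. The next members ranked 692, 1147 and 1973. Its median member ranked only 4722 and its weakest 9164, so a few high summits stood among many low ones. Low-scoring members could differ widely in rank between replicates, and the summit ranked 7453 stood at 13848, 6982 and 5269 in replicates 1, 2 and 3.

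No member of the second largest run lay in a protein-coding gene body. It held 14 summits over 18119 bp (chr3R:10075570-10093689), beside Alp13, an alkaline phosphatase gene, and over the noncoding genes lncRNA:CR45054, lncRNA:CR43459 and the microRNA gene mir-317. Its members were stronger than those of crp, with a median rank of 1496 and 7 members at rank 983 or better. The highest ranked 127 overall and 134, 113 and 123 in the 3 replicates. It lay in a noncoding exon, 1625 bp upstream of mir-317, and the second, intergenic, ranked 151 overall and 142, 174 and 156 in the replicates. Of its members, 4 lay at promoters, 5 in introns of noncoding genes, 4 between genes and 1 in a noncoding exon. The other 6 runs without a member in such a body held 5 to 8 summits, and the largest of them lay nearest to Rh5, a rhodopsin gene.

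At tara (taranis), which encodes a transcriptional coregulator of the trithorax group, 2 runs of 11 and 6 summits lay 4382 bp apart. All 17 summits were inside the 34679 bp gene, with 1 at a promoter. The first run peaked at rank 534 (404, 377 and 914 in the replicates). The second, shorter run held the stronger summit, at rank 178 (177, 217 and 181). Of the 132 runs, 16 came in such pairs, at 8 hosts. The others were Eip74EF, an ETS transcription factor gene of the early ecdysone response, shn (schnurri), a zinc finger factor of Dpp signalling, Mnt, a repressor partner of Max, Tlk (tousled-like kinase), CHES-1-like, a forkhead gene, sbb (scribbler) and CG14434. The distance between the runs of a pair ranged from 3232 bp at CG14434 to 31592 bp at Eip74EF.

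The strongest summit of the whole list lay in a run. It was 145 bp upstream of a TSS inside Eip75B, which encodes an ecdysone-induced nuclear receptor, and ranked 1 in the reproducible list and in every replicate. The run held 9 summits over 9625 bp of the 113744 bp gene, and the next summits ranked 225, 486 and 1270, all in introns. Scores fell steeply within it, from 191863 for the first summit to 11075 for the second and 568 for the last. Each of the 9 members was found in all 3 shortened lists.

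REPTOR, which encodes a bZIP transcription factor restrained by TORC1, held a run of a different shape, with 2 summits far above the rest. They ranked 19 (16, 19 and 26 in the replicates), 167 bp upstream of a REPTOR TSS, and 33 (31, 32 and 41) in an intron. The remaining 7 members ranked 4295 to 8774. In the run over ph-p, a Polycomb group gene, the leading summit belonged to the promoter of the neighbouring Pgd, the 6-phosphogluconate dehydrogenase gene. It ranked 31 (33, 39 and 28), and a second promoter summit ranked 81 (95, 68 and 82). With a median rank of 1305 and 6 of 9 members at promoters, that run was stronger along its length than the crp and REPTOR runs.

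**Figure D2:**
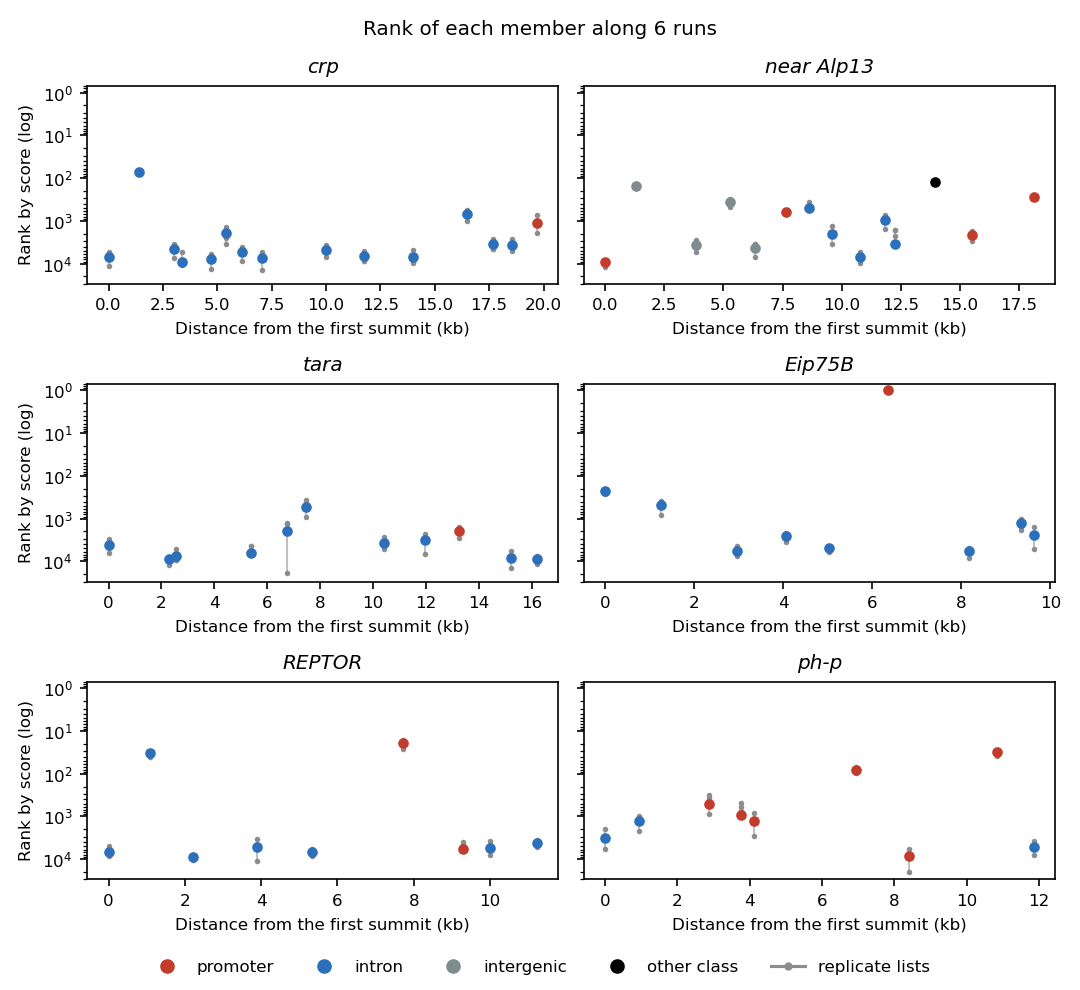
Rank by score on a log axis (1 at the top) against distance from the first summit in kb, for the members of 6 runs, coloured by genomic class, with small grey points for the rank of the matching peak in each replicate list. At Eip75B the promoter summit at rank 1 stands far above the other 8 members, and at crp a summit at rank 73 stands among members down to rank 9164.

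Other runs with the highest top scores spread over several short genes. At Adk3, an adenylate kinase gene, the top summit 38 bp upstream of the TSS ranked 2 (2, 5 and 2 in the replicates), and of the other 7 members 1 ranked better than 2000, at 235. The Kdm2 run, at a histone demethylase gene, had members at the promoters of Rel (the NF-kappaB factor Relish), Nmdmc, Mst85C and Kdm2. Its top summit, in a Kdm2 coding exon, ranked 22 (28, 23 and 15). At emp, which encodes a scavenger receptor of the CD36 family, the top summit ranked 16. The fabp run, at a fatty acid binding protein gene, also held the promoter of the citrate carrier gene sea. Its top summit, 301 bp downstream of a sea TSS, ranked 20. The galectin, brwl and ref(2)P runs (ref(2)P encodes the autophagy adaptor p62) had top ranks of 23, 40 and 43. In the brwl and ref(2)P runs the top summit lay nearest to another gene, 786 bp upstream of jp and 60 bp upstream of CG10337. In contrast, the foxo run, at the forkhead factor gene of insulin signalling, was among the longest at 12954 bp and had no summit better than rank 1715. Its top member, 3387 bp upstream of a foxo TSS, ranked 1142, 1910 and 2776 in the replicates.

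Runs with many members but moderate scores included a set over promoter clusters. At Pgk, which encodes phosphoglycerate kinase, 7 of 10 members lay at promoters, those of Pgk, Bacc, HemK2, Snapin, Tnpo-SR and lncRNA:CR44772. The top summit, 237 bp upstream of a lncRNA:CR44772 TSS, ranked 132 (139, 116 and 136). The summits nearest to a Pgk TSS ranked 1489, 6695 and 8315. HmgD and its neighbour HmgZ, genes of HMG-box chromatin proteins, also had 7 of 10 members at promoters, with a top rank of 667. The COX7AL2 run (a cytochrome c oxidase subunit gene) instead had 4 intronic members, 1 promoter member and 6 between genes, with a top rank of 163 (258, 129 and 149). In atos (atossa), RhoGAP18B and Raf, the kinase downstream of Ras, 7 or 8 of 10 members were intronic. Their top summits ranked 585, 1740 and 867, and that of the Raf run lay 305 bp upstream of a CG2865 TSS. The Wwox run, at an oxidoreductase gene, held 9 summits over the promoters of several neighbouring genes, and its best rank was 1454.

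Most of the highest-scoring peaks lay outside the runs, as did most of the list, of which members were 8.81%. Of the 15 highest-scoring peaks of the list 2 were members, of the top 100 there were 18 and of the top 500 there were 70. These shares cannot be set against that of the whole list, because thinning drops the lower-scoring summit of a close pair. Of the retained summits 9.99% were members. Members made up 12.8% of the retained summits in the 20% of the list with the highest scores and 8.66 to 10.2% in each lower 20%. The top member ranked within the first 500 in 44 of the 132 runs and past 4000 in 6. Members had a median rank of 4034 and a median score of 841, against 4445 and 754 for the other retained summits. Their peaks were wider, with a median of 517 against 434 bp. A peak with several summits was counted once for each, and a rule for close summits favours such peaks. Within the spans of the runs the pooled list held another 374 summits outside the reproducible list, in 124 runs, so most runs contained further weaker peaks.

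Runs fell into 3 kinds. In 41 of 132 runs (31.1%, Wilson 95% interval 23.8 to 39.4%) all members lay inside 1 gene, with a median host length of 34679 bp, and 75.3% of their 247 members were intronic. Another 84 runs reached over a gene end, with a median host length of 10230 bp, and 49.6% of their 514 members were at promoters. In the last 7 runs, with 50 members, no member lay in a protein-coding gene body. Members at promoters of 2 or more protein-coding genes occurred in 61 runs, and in 17 runs there were 4 or more such genes. At the other end, 13 runs had no promoter member.

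The promoter share of members was below that of the other summits in the reproducible list and in each replicate. A summit within 500 bp of an annotated TSS was counted as at a promoter, which held for 54.6% of all retained summits. Of the members 320 of 811 did so, or 39.5% (36.2 to 42.9%), against 56.3% (55.1 to 57.4%) of the others. Introns held 380 members (46.9%, 43.4 to 50.3%) against 27.3% of the others, whereas 10.4% and 13.2% lay between genes. Runs built separately in replicates 1, 2 and 3 gave promoter shares of 37.4%, 40.6% and 39.6% for members and 54.2%, 56.8% and 60.1% for others. The means were 39.2 ± 1.64% and 57.0 ± 2.99% (SD, n = 3), and the 2 sets of values did not overlap. Intron shares were 45.9 ± 0.781% and 27.1 ± 2.12% (SD, n = 3), again without overlap. No test was made of these differences, since summits of a run share a locus and the replicate lists share most of their sites. With only protein-coding TSSs counted, the members' promoter share was 34.4%. Intronic members lay towards the 5′ end of their gene about as often as other intronic summits, with 69.5% (64.6 to 73.9%) against 67.3% (65.2 to 69.3%) in the 50% of the gene next to the 5′ end.

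**Figure D3:**
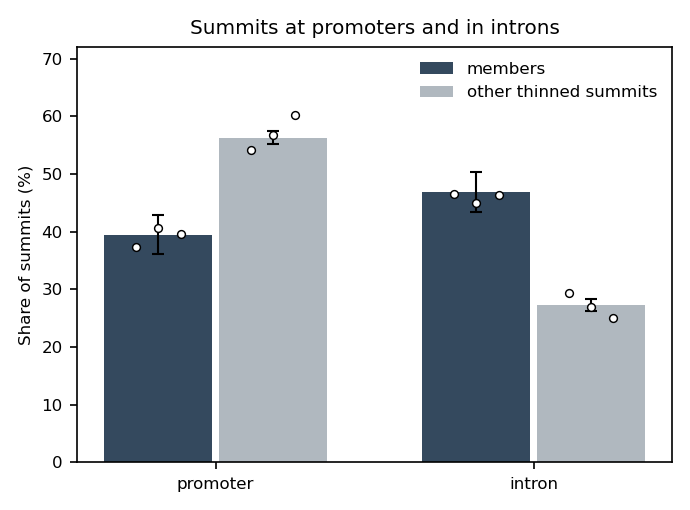
Share of summits in percent at promoters and in introns, for members and for the other retained summits. Bars give the reproducible list with Wilson 95% intervals, and open points give the runs built in replicates 1, 2 and 3 from left to right. The promoter share is 39.5% for members and 56.3% for others.

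Members were found again in the replicates about as often as other summits. Each replicate list was shortened to its 9202 highest-scoring peaks. In these lists 629 of 811 members (77.6%) were overlapped in all 3 replicates, against 71.4% of the others and 72% of all retained summits. The reproducible list was itself made from these replicates, so this share is not independent. Overlap by 1 bp can count a summit as found through a wide peak that several summits share, and members had the wider peaks. With a replicate summit required within 100 bp, the shares were 66.6% of members and 65.2% of the others, and with overlap of 50% of the peak 57.6% and 58.4%. The higher share of members thus did not hold under these stricter rules. In the full lists of 30000 peaks the shares were 98.3% and 95.4%. Built anew, replicates 1, 2 and 3 gave 129, 123 and 126 runs with 773, 771 and 778 members. The members were thus close in number from list to list, but the runs were not all in the same places. Of the 132 runs, 99, 94 and 91 were overlapped by a run of replicates 1, 2 and 3. In all 3 replicates 65 were found, in 2 replicates 35, in 1 replicate 19 and in no replicate 13. The crp, Alp13, tara, Pgk, Eip75B and REPTOR runs were each found in 3 of 3, while those at PyK, jumu and kst were found in none. Desat1, a fatty acid desaturase gene whose members ranked 80 to 6717, was found in 1.

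AAGCT was concentrated at the summits, and more so at the strong ones. It occurred on either strand within 50 bp of the summit in 34.5% of all retained summits. Members had it in 263 of 811 windows, 32.4% (29.3 to 35.7%), and in 13.8% of windows of the same width 500 bp to either side. For the others the shares were 34.7% (33.7 to 35.8%) and 14.6%, so the concentration at the summit was not particular to members. Matches per 100 members peaked at 16.8 in the 20 bp just left of the summit and stood between 2.96 and 4.81 in the 4 bins beyond 200 bp on that side. In the 20% of the list with the highest scores, 56.7% of members had AAGCT, followed by 32.4%, 23.8%, 20.3% and 15.7% in each further 20%. The others went from 60.2% to 21.8%.

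**Figure D4:**
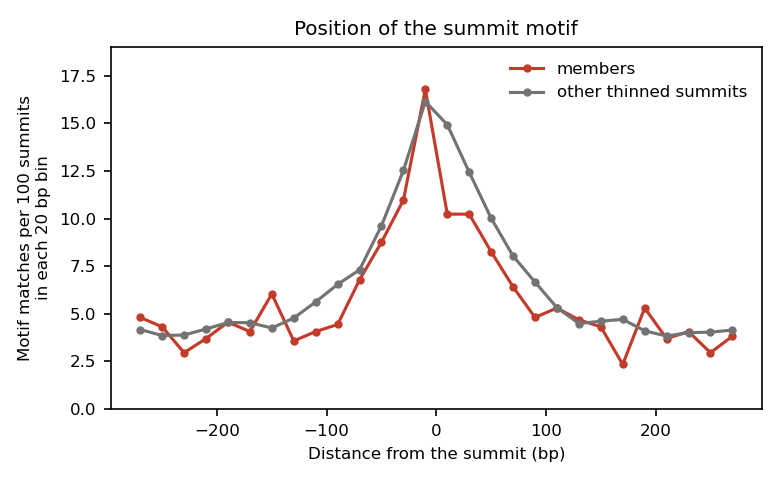
Matches of AAGCT on either strand per 100 summits in bins of 20 bp (y axis) against distance from the summit in bp (x axis), for the 811 members and the 7307 other retained summits. Both lines peak at the summit, members at 16.8 matches per 100 summits.

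**Figure D5:**
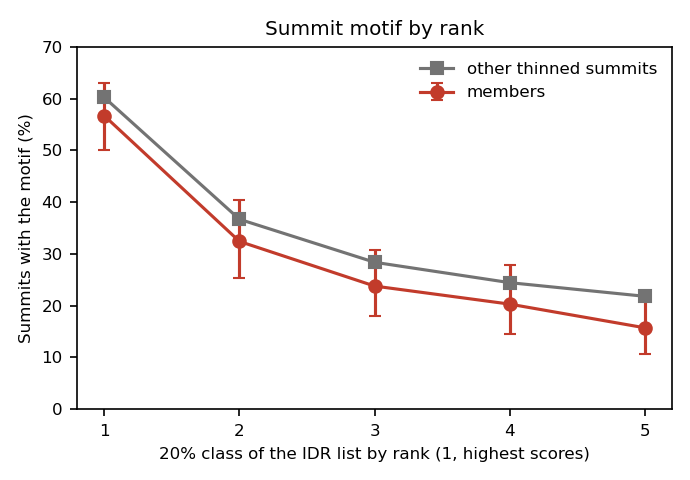
Share of summits in percent with AAGCT within 50 bp, in each 20% of the reproducible list from highest to lowest scores, for members (Wilson 95% intervals) and other retained summits. For members it falls from 56.7% to 15.7%, and for the others from 60.2% to 21.8%.

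The same order held within runs. The highest-scoring member of a run had AAGCT in 73 of 132 runs, 55.3% (46.8 to 63.5%), and the other members in 190 of 679, 28.0% (24.7 to 31.5%). At promoters lay 45.5% (37.2 to 54.0%) of the former and 38.3% (34.7 to 42.0%) of the latter. In 18 runs no member had AAGCT, among them those at chic (profilin), Act5C (a cytoplasmic actin) and trx (trithorax). The run near Alp13 had it in 7 of 14 members, crp in 6 of 15, Eip75B in 5 of 9 and gce, a juvenile hormone receptor gene, in 5 of 6. Raf had it in 2 of 10 and RhoGAP18B in 1 of 10. By class the members' share was 33.8% at promoters, 32.6% in introns and 27.4% between genes. The others had 34.8%, 32.6% and 37.5%, and between genes the Wilson intervals overlapped. Among all 2080 6-mers (a 6-mer counted with its reverse complement), ranked by the share of summits minus that of the flanks, AAAGCT came first for members and for others. It was in 22.6% of member windows and 6.04% of their flanks. AAGCTC came second for members, with 17.1% and 3.27%. GAGCGA came 7th for members and 289th for others, in 10.9% and 5.625% of windows, with 5.49% and 4.50% in the flanks.

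GAGAG is the repeat bound by GAGA factor (Trl) and Pipsqueak. It was in 16.2% of all retained windows, in 159 of 811 members, 19.6% (17.0 to 22.5%), and in 15.8% of the others. Flanks held it in 14.9% and 12.7% of windows. In replicates 1, 2 and 3 the shares were 15.7%, 19.5% and 24.2% for members and 14.2%, 15.9% and 17.3% for others. Members were higher in each replicate, but the 2 sets of values overlapped, with means of 19.8 ± 4.26% and 15.8 ± 1.52% (SD, n = 3). Members also had a higher GC content, a median of 40.6% against 37.6%, and its part in the GAGAG share was not tested. At promoters GAGAG was in 21.6% of member windows and 16.9% of others, in introns in 17.6% and 16.2%. The other 14 listed motifs were each in fewer than 10% of member windows. TAATTA, a homeodomain site, was in 8.51% of members and 7.70% of the others. The GATA factor site GATAAG was in 7.40% and 6.47%. TATCGATA, the element bound by Dref, was in 6 members (0.740%) against 1.66% of the others, and AACCGGTT, a grainyhead site, in 0 of 811, with a Wilson upper bound of 0.471%, against 0.205% of the others.

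Hosts of runs were long genes, which the rule for naming a host favours. A long body can hold more members of a run, and ties went to the gene with more of the run span, then to the longer gene. The 125 runs with a host body had 117 different hosts, 0.839% of 13945 protein-coding genes. Their median length was 13.9 kb, against 2.17 kb for all genes and 7.53 kb for the 2558 genes with any retained summit in the body. Hosts made up 0.153% of genes up to 5 kb, 1.66% of those of 5 to 10 kb and 2.80% of those of 10 to 20 kb. The share was 4.53% for genes of 20 to 50 kb and 5.54% for genes over 50 kb. Counts of hosts among gene lists therefore stand beside the median gene length of each list, and the part of length in them was not tested.

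Among the lists of regulators, the ecdysone response had 4 hosts in 26 genes with a median length of 24.0 kb. They were Eip75B, Eip74EF, EcR (the ecdysone receptor) and Kr-h1, a zinc finger factor of the juvenile hormone response. The EcR run was 13737 bp long with 8 members, 7 of them intronic and 1 at the promoter of a tRNA gene within EcR. Its best summit, 1420 bp downstream of a tRNA gene TSS, ranked 337 (480 and 392 in replicates 1 and 3, and better still in replicate 2). The median rank of the run was 6141, and 5 of its 8 members were found in all 3 shortened lists. In Kr-h1 all 5 members were intronic and the best ranked 1914 (2302, 3060 and 1571). A run of 5 inside both br (broad, an early ecdysone gene) and the larger overlapping Mur2B was assigned to Mur2B by the rule for ties, and its best summit ranked 561 (531, 705 and 537).

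A further list of sequence-specific transcription factors had 9 hosts in 56 genes (median 17.4 kb), namely pnt, shn, ush, jumu, vri, Pdp1, foxo, gce and CrebB. The lists overlap, and pnt, shn, vri, Pdp1 and foxo are counted again in other lists below. The run in gce had all 6 members in all 3 shortened lists and a best rank of 365 (401, 527 and 331). In pnt (pointed), the ETS factor of EGFR signalling, none of the 7 members ranked better than 5593. The 2 clock genes vri and Pdp1 made up the hosts among 10 circadian genes (median 12.4 kb). Of 21 nuclear receptor genes (median 22.4 kb) EcR and Eip75B were hosts, and of 16 BTB factor genes (median 43.6 kb) ken was. The 6 members of the ken run ranked 422 to 1782, so none was among the low-scoring summits of the list.

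Pathway lists held 1 or 2 hosts each. These were mam and numb of 22 Notch genes, Raf and pnt of 21 EGFR genes, foxo and REPTOR of 24 insulin and TOR genes, shn of 30 Wnt, Hedgehog and Dpp genes, and ken of 24 Hippo and JAK-STAT genes. In numb, an inhibitor of Notch, the 2 best summits were intronic and ranked 142 (188, 123 and 135) and 259 (383, 202 and 262). Brat and Syp were the hosts among 30 RNA-binding regulators, and trx and ph-p among 31 chromatin regulators. The Syp run, at the gene of a neural RNA-binding protein, had 4 of its 6 members at rank 827 or better.

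Structural and metabolic lists also contributed. Of 40 cytoskeleton, adhesion and polarity genes 6 were hosts, namely Act5C, chic, sn (fascin), kst (a spectrin), Moe (moesin) and shot (a spectraplakin). Of 27 genes of glycolysis and lipid metabolism (median 6.08 kb) 3 were hosts, Pgk, PyK and Desat1. The 3 best Desat1 members, all at its promoters, ranked 80, 247 and 664. No host was found among 30 axon guidance genes and 21 neuronal excitability and release genes. These lists had median lengths of 34.2 and 43.8 kb, and 4.53% of all genes of 20 to 50 kb were hosts, so a count of 0 in lists of this size is near the background. None was found among 8 Hox genes (median 30.6 kb). The same held for 87 cytosolic ribosomal protein genes (median 1.33 kb), 108 cuticle protein genes (1.01 kb) and 179 chemosensory receptor genes (1.69 kb). Of all genes up to 5 kb 0.153% were hosts, so a count of 0 in these lists of short genes is near the background. Of the 87 ribosomal protein genes 5 had a member at a promoter. RpL26 was in the CG3902 run, RpS14a and RpS14b in the Ubr3 run, and RpL12 and RpL39 in the eEF5 run. Neighbouring genes were thus counted together, and this count was not set against all protein-coding genes.

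By chromosome arm, X held 27 runs, 2L 21, 2R 31, 3L 22 and 3R 31. Members made up 7.17% (6.06 to 8.46%) of the retained summits of 3L and 10.1 to 11.55% of those of the other arms. Chromosome 4, with 28 retained summits, had no run.

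At the edge of the rule, 119 runs held 4 summits. The strongest of these had top ranks of 11 at KCNQ, a potassium channel gene, 18 at bip1 and 28 at Trl, the GAGA factor gene. The widest gaps inside a run of 5 were 2992 bp at CG1888 and 2990 bp at Mnt. Just beyond the limit, a gap of 3003 bp separated 5 summits from 3 in CG6191 and 6 at trx from 1 at red. A gap of 3012 bp kept groups of 2 and 3 summits apart at Diap1, a caspase inhibitor gene.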

How the data were processed

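Anti-GFP ChIP-seq of 3 biological replicates in 1 group was analysed from the peak lists that the authors deposited. Per the deposited text descriptions, peaks were called per replicate and on the pooled replicates against a control library, which was not analysed here, and pooled peaks passing an irreproducible discovery rate threshold formed the reproducible list. Aligner, caller, software versions and that threshold were not given in the sources used here. Chromatin was sonicated to a size range of 200-800, per the labels. The peak score is the authors' deposited value, on an unstated scale, and served for ranking inside each list. Summit offsets, another deposited column, gave positions, 1-based on dm6. The lists hold no read counts, so depth is unknown.

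Thinning went from the highest score down. Genes and TSSs came from Ensembl release 115 and bases from RefSeq release 6, and all peaks ended within its chromosomes. A replicate's rank for a member is that of its peak whose summit lay within 250 bp, in the full list. A member counted as found where a replicate peak overlapped its peak by 1 bp or more, and a run where a run of that replicate overlapped its span. Shares have Wilson 95% intervals, which cover counting error only and treat summits as independent, although members of a run share a locus. Summits and genes are not replicates, and the replicates may share technical sources of error.

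The named hosts are those of the 12 runs with the most summits, the 10 with the highest top score and the 10 longest, every run whose host or promoter gene is on 1 of 20 gene lists (a selection is printed), and those nearest the thresholds. Of the listed symbols 5 had no match and 9 matched through a synonym. Members, lists, 15 motifs and the alternatives were chosen with earlier results of these data known. The AAGCT motifs, the 6-mer ranking, the hosts CG1677, Rh5 and those with 2 runs, the stricter rules for finding other summits in the replicates, and the count with protein-coding TSSs were chosen after these values were seen. Some items are not reported here. Python 3.11.15, numpy 2.4.6, scipy 1.17.1 and matplotlib 3.10.9 were used, and the scripts were tested on simulated data.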

Additional observations from a re-analysis of the deposited data

How the results depend on the processing

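Of 81 recomputed values, 43 stayed within tolerance (counts within 1.5 times, shares within the Wilson 95% interval) and 38 moved. The counts of runs and members depended most on the settings, since the rule is a density threshold. Joining gaps up to 2000 bp gave 61 runs with 359 members, and up to 4000 bp gave 209 with 1331. Runs of 4 or more numbered 251 with 1287 members, and of 6 or more 62 with 461. Without thinning there were 218 runs and 1401 members, in the highest-scoring 50% of the list 24 and 139, and with 1.5 times as many pooled peaks 353 and 2346. Keeping only the reproducible peaks found in both of the other shortened replicate lists gave 74 to 82 runs and 431 to 483 members. The peaks and scores still came from all 3 replicates, so this filter does not show dependence on any 1 replicate. The promoter share of members was 44.8% (4000 bp), 43.2% (runs of 4), 36.0% (runs of 6), 43.6% (no thinning), 32.3% and 52.5% (promoters within 250 and 1000 bp) and 34.4% (protein-coding TSSs). The share of runs inside 1 gene was 45.9% at 2000 bp. GAGAG was in 28.1% (highest-scoring 50%) and 33.8% (100 bp to either side). AAGCT was in 29.2% (2000 bp), 43.9% (highest-scoring 50%), 27.0% (1.5 times as many peaks) and 45.9% (100 bp to either side). Under the filter for both of the other replicate lists it was in 32.1 to 36.2%. Members found in all 3 replicates were 57.6% with overlap of 50% of the peak, 66.6% with replicate summits within 100 bp and 98.3% in full lists. In 12 of 12 settings members had a lower promoter share, a higher GAGAG share and a lower AAGCT share than others. These settings reuse the same peaks and are not independent, and thinning by position gave the same shares as the main rule. The AAGCT difference was small, down to -0.752 percentage points in the highest-scoring 50% of the list. The cause of the shifts between settings was not tested. Depth is unknown, and no input library, expression or tissue information bears on the runs here. No paired analysis was possible because there was 1 group.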
